A study of Sus scrofa domesticus with 28 samples.

Results

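AB280952 and ENSSSCT00000000394 are 2 pig transcripts that the array design lists by accession, with no gene name. They are 2 of the 18770 genes and accessions that passed the filter on dim probes, 18765 of which could be tested. They were chosen by measured values of these same arrays, as accessions with higher ratios in hyperpigmented than in hypopigmented scar. That difference is therefore given below as a description, with no test. The probes were found by their accession in the scanner files: AB280952 has 3 probes and ENSSSCT00000000394 has 1, and all 4 passed the filter. Symbols were looked up by RefSeq accession, and neither of the 2 is one, so this lookup could not name them. Both are called by accession throughout. Whether the 2 belong to 1 gene was not tested.

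The study measured gene expression in 28 skin biopsies of 2 juvenile castrated male red Duroc pigs, numbered 49 and 50, a breed used as a model of hypertrophic scarring. Early scar gave 4 hyper and 4 hypo biopsies, all under sham treatment. Mid scar and late scar each gave 2 hyper and 2 hypo biopsies under pressure, and 2 hyper and 2 hypo biopsies under sham treatment. The remaining 4 biopsies were control skin, 1 from the left and 1 from the right side of each pig. Each biopsy was hybridised in Cy5 against the same universal pig reference RNA in Cy3, so each value is a log2 ratio of biopsy over reference. In mid and late scar pressure was always on the right side and sham on the left, so treatment and side cannot be told apart. All hyper biopsies carry the code a1 in their titles and all hypo biopsies a3, which cannot be told apart from pigmentation. With 2 animals, p-values measure the spread between biopsies.

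Skin and hair colour come from melanocytes, pigment cells of the epidermis and the hair follicle that make melanin in melanosomes and pass these to keratinocytes. TYR, tyrosinase, catalyses the rate-limiting step of melanin synthesis, and TYRP1 is a related enzyme of the same pathway. Scar formed after a deep wound usually lacks hair follicles, which hold a reservoir of melanocytes. A biopsy mixes many cell types, so fewer cells of a type and less RNA per cell cannot be told apart.

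Both transcripts had their highest level in control skin, an intermediate level in hyper scar, and a level at or near background in nearly all hypo scar. AB280952 averaged log2 ratios of 1.89 ± 0.88 in hyper scar (SD, n = 12) and -0.13 ± 0.41 in hypo scar (SD, n = 12), and 5.10 ± 0.52 in control skin (SD, n = 4). ENSSSCT00000000394 averaged 1.82 ± 0.61 in hyper scar, 0.14 ± 0.69 in hypo scar and 2.73 ± 0.29 in control skin (SD, same n). The higher level in hyper than in hypo scar is what the transcripts were chosen by. In every phase the mean level of both was below that of control skin.

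**Figure D1:**
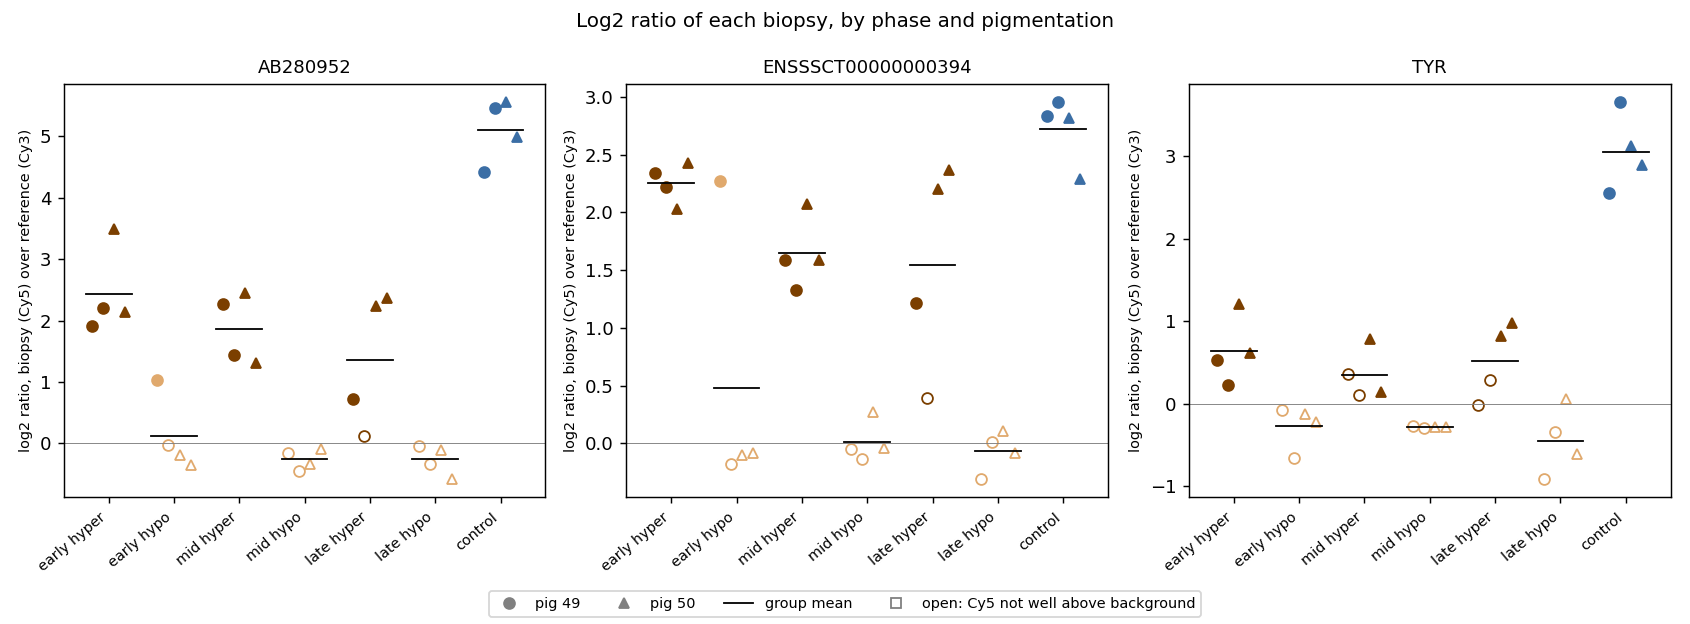
Log2 ratio (y axis) of AB280952, ENSSSCT00000000394 and TYR in each of the 28 biopsies, by phase and pigmentation (x axis). Circles are pig 49, triangles pig 50, bars group means, and open symbols arrays whose Cy5 signal was not well above background. AB280952 lay between 4.42 and 5.55 in control skin, above every scar biopsy, and 1 early hypo biopsy of pig 49 carried both transcripts.

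In early scar, the hyper biopsies had AB280952 log2 ratios of 1.91 and 2.20 in pig 49 and 3.49 and 2.14 in pig 50, left side before right. The hypo biopsies had 1.03 and -0.03 in pig 49 and -0.18 and -0.36 in pig 50. The hyper and hypo ranges did not overlap, although the left hypo biopsy of pig 49 stood above the other 3. Separation of hyper from hypo values, here and in mid and late scar, follows from how the transcripts were chosen. In mid scar, the hyper biopsies had 1.44 and 1.31 under pressure and 2.27 and 2.44 under sham, pig 49 before pig 50. The mid hypo biopsies had -0.46 and -0.08 under pressure and -0.15 and -0.34 under sham. All 4 mid hyper values were above all 4 mid hypo values. In late scar, the hyper biopsies had 0.13 and 2.37 under pressure and 0.72 and 2.23 under sham, and the hypo biopsies had -0.33 and -0.57 under pressure and -0.04 and -0.10 under sham. Both low late hyper values came from pig 49, and both high ones from pig 50.

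ENSSSCT00000000394 had log2 ratios of 2.34 and 2.22 in the early hyper biopsies of pig 49 and 2.03 and 2.43 in those of pig 50. The early hypo biopsies had 2.27 and -0.18 in pig 49 and -0.10 and -0.09 in pig 50. The left hypo biopsy of pig 49 lay within the hyper range, so the early groups overlapped for this transcript. In mid scar, the hyper biopsies had 1.33 and 1.59 under pressure and 1.59 and 2.07 under sham. The mid hypo biopsies had -0.14 and -0.04 under pressure and -0.05 and 0.27 under sham, below every mid hyper value. In late scar, the hyper biopsies had 0.40 and 2.37 under pressure and 1.21 and 2.21 under sham, against 0.01 and -0.08 and then -0.31 and 0.11 in the hypo biopsies. The late groups did not overlap, with the right hyper biopsy of pig 49 closest to the hypo values, as for AB280952. Here too the separation of hyper from hypo values follows from how the transcripts were chosen.

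Ordered by group mean, AB280952 ran from control skin through early hyper (2.43 ± 0.71), mid hyper (1.86 ± 0.57) and late hyper scar (1.36 ± 1.11) to early hypo (0.12 ± 0.62), mid hypo (-0.26 ± 0.17) and late hypo scar (-0.26 ± 0.24; SD, n = 4 each). Neighbouring hyper groups, and neighbouring hypo groups, differed by less than the larger of their SDs. ENSSSCT00000000394 had the same order, with means of 2.26 ± 0.17, 1.64 ± 0.31 and 1.55 ± 0.92 in early, mid and late hyper scar and 0.48 ± 1.20, 0.01 ± 0.18 and -0.07 ± 0.18 in early, mid and late hypo scar. For this transcript early and mid hyper scar differed by more than either SD.

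The Cy5 flags of the scanner program show where the transcripts were measured at all. At the probe that stands for each transcript, Cy5 was well above background on 11 of 12 hyper arrays, on 1 of 12 hypo arrays and on 4 of 4 control arrays. The exception among hyper arrays was the right late biopsy of pig 49, and the hypo array that was above background was the left early biopsy of pig 49. In mid and late hypo scar no probe of either transcript was well above background on any array, so folds against these groups are approximate. In the Cy5 channel AB280952 was about 3.34-fold higher in mid hyper than in mid hypo scar and about 2.58-fold higher in late hyper than in late hypo scar. For ENSSSCT00000000394 the folds were about 4.12 in mid scar and about 3.06 in late scar. Each fold sets the mean of the brighter group against the higher of the lowest well-above-background signal of an array and the probe's own signal. For AB280952 in mid scar the probe's own signal was not below that lowest signal, so 3.34 is the measured fold. Those signals were still flagged as not above background, so the lowest signal is not a detection limit. Dye bias cannot be separated from these folds because no dyes were swapped. In late hyper scar 3 of 4 arrays were well above background, and the mean takes in all 4. The folds hold only within the processing used here. With uncapped backgrounds the mid difference in log2 ratio was smaller, 0.76 for AB280952 and 0.61 for ENSSSCT00000000394.

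A hyper and a hypo biopsy were available from the same pig, side and phase in 12 cases. AB280952 was higher in the hyper biopsy in 12 of 12 pairs, by 0.46 to 3.67 on the log2 scale with a median of 2.28. ENSSSCT00000000394 was also higher in 12 of 12 pairs, by 0.07 to 2.52 with a median of 1.72. These counts follow from how the transcripts were chosen. In 5 of the 12 pairs the 2 biopsies differ in a number in their titles that has no stated unit, so the pairs may not be matched in all respects.

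By phase, the AB280952 pairs differed by a mean of 2.32 ± 1.14 in early, 2.12 ± 0.61 in mid and 1.62 ± 1.20 in late scar (SD, n = 4 pairs each). ENSSSCT00000000394 differed by 1.78 ± 1.15, 1.63 ± 0.14 and 1.61 ± 0.90 in early, mid and late scar. The pairs of mid scar were the closest to each other for both transcripts. The smallest early difference belonged to the left pair of pig 49, at 0.88 for AB280952 and 0.07 for ENSSSCT00000000394, and the smallest late difference to the right pair of pig 49, at 0.46 and 0.39. With each array left out in turn, the early difference was between 2.005 and 2.69 for AB280952 and between 1.56 and 2.43 for ENSSSCT00000000394, both highest without the left early hypo biopsy of pig 49. The late difference was between 1.102 and 2.15 for AB280952 and between 1.11 and 2.12 for ENSSSCT00000000394. For both it was lowest without the late pressure hyper biopsy of pig 50 and highest without that of pig 49.

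**Figure D2:**
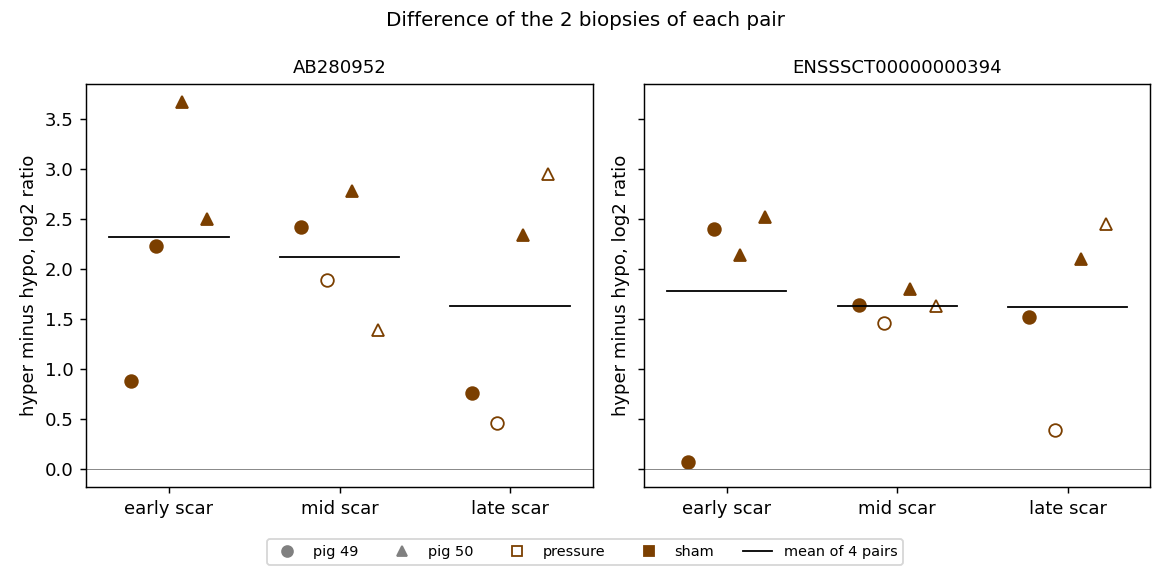
Hyper minus hypo difference in log2 ratio (y axis) for each of the 12 pairs, by phase (x axis). Circles are pig 49 and triangles pig 50; open symbols are pressure pairs, filled ones sham pairs, and bars are means of 4 pairs. All points lie above 0, and the lowest are the left early and right late pairs of pig 49.

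In the model over all arrays the hyper minus hypo difference was 2.02 ± 0.24 for AB280952 and 1.68 ± 0.25 for ENSSSCT00000000394 (log2 ratio ± SE), the highest and second highest of 18765 features. For background, 0.016% of all features were higher in hyper scar at an adjusted p under 0.05 in limma with Benjamini-Hochberg adjustment. The contrast chose the 2 transcripts, so nothing is read from that share. Inside that threshold stood TYR, with a difference of 0.84 ± 0.14 (log2 ratio ± SE, limma adjusted p = 0.0310). TYRP1 with 0.96 ± 0.18 and PLET1 with 1.36 ± 0.28 did not pass (limma adjusted p = 0.180 and 0.276). The size depended on the processing. With the local background left uncapped it was 1.09 for AB280952 and 0.94 for ENSSSCT00000000394. In the authors' deposited value table, which differs in several steps at once, it was 4.13 and 2.999 in the same order.

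The differences from control skin did not enter the choice of the transcripts and were tested over all phases of scar. Both transcripts fell in each phase. AB280952 was lower by 14.2-fold in early scar (log2 difference -3.83 ± 0.36 SE, limma adjusted p = 2.0e-07), by 19.7-fold in mid scar (-4.30 ± 0.36, adjusted p = 5.2e-08) and by 23.5-fold in late scar (-4.55 ± 0.36, adjusted p = 2.2e-08). ENSSSCT00000000394 was lower by 2.57-fold in early scar (-1.36 ± 0.37, adjusted p = 0.00685), by 3.73-fold in mid scar (-1.90 ± 0.37, adjusted p = 0.000848) and by 3.96-fold in late scar (-1.99 ± 0.37, adjusted p = 0.000352). Of all features tested, 14.7%, 11.6% and 13.4% were lower than control skin in early, mid and late scar, so being called lower was common. The size was less so for AB280952, which ranked 22nd, 12th and 10th from the lowest of 18765 features, while ENSSSCT00000000394 ranked 491st, 122nd and 116th. In the deposited value table ENSSSCT00000000394 differed by -0.87, -1.39 and -1.47 and no longer passed in any phase (adjusted p = 0.262, 0.0796 and 0.0569).

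Hyper scar and hypo scar were both below control skin, by different amounts. AB280952 was lower than control skin by log2 differences of -2.67, -3.24 and -3.74 in early, mid and late hyper scar, and of -4.99, -5.36 and -5.36 in early, mid and late hypo scar (SE 0.41 each, no test). The ratios of ENSSSCT00000000394 differed by -0.47, -1.08 and -1.18 in hyper scar and by -2.25, -2.71 and -2.79 in hypo scar (SE 0.43 each, no test). In early hyper scar this difference was close to its SE. On the 3 slides that held both kinds of tissue, scar minus control skin was -4.95, -5.05 and -5.63 for AB280952. It was -2.79, -2.08 and -2.78 for ENSSSCT00000000394. Those slides held 0, 1 and 1 hyper scar arrays and 2 hypo scar arrays each, so these values weigh hypo scar more.

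The reference channel was not constant at the ENSSSCT00000000394 probe. Its Cy3 spot median, which carries only the common reference RNA per the labels, was 32.5 to 173 on the 24 scar arrays, against 414, 867.5, 829 and 585 on the 4 control arrays. The AB280952 probe had Cy3 spot medians of 52 to 94 on scar arrays and 63 to 82 on control arrays. On the normalised log2 scale, Cy3 at the ENSSSCT00000000394 probe was 6.36 ± 0.25 on scar arrays (SD, n = 24) and 9.16 ± 0.58 on control arrays (SD, n = 4). At the TYR probe it was 6.45 ± 0.11 on scar arrays and 7.37 ± 0.35 on control arrays.

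The Cy3 signals were fitted alone in the same model, an analysis added after these values were seen. ENSSSCT00000000394 was lower in early, mid and late scar than on control arrays, with log2 differences of -2.75, -2.77 and -2.87 (SE 0.17; limma adjusted p = 1.1e-09, 1.1e-09 and 5.9e-10), the 12th lowest of 18765 features in each phase. For comparison, 0.837%, 0.89% and 1.85% of features were lower in Cy3 in early, mid and late scar. AB280952 differed in Cy3 by -0.06, 0.00 and 0.09, and its adjusted p was 0.742 or more. TYR differed in Cy3 by -0.95, -0.93 and -0.86 (SE 0.10; adjusted p = 9.8e-06, 1.6e-05 and 3.8e-05). The origin of these Cy3 differences was not tested.

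Read in the Cy5 channel alone, both transcripts fell by similar amounts. ENSSSCT00000000394 differed from control skin by -4.11, -4.67 and -4.86 in early, mid and late scar (SE 0.44; limma adjusted p = 8.7e-07, 2.8e-07 and 1.7e-07), and AB280952 by -3.88, -4.30 and -4.46 (SE 0.37; adjusted p = 2.1e-07, 8.1e-08 and 4.9e-08). The ratio of ENSSSCT00000000394 therefore holds a smaller difference than its biopsy channel, by the amount by which the reference signal differed. In Cy5 the hyper biopsies were also below control skin, with differences of -3.02, -3.62 and -4.01 for ENSSSCT00000000394 and of -2.87, -3.43 and -3.75 for AB280952 in early, mid and late scar. Within the processing used here, mid and late hypo scar were about 50.8-fold and about 49.2-fold lower than control skin for ENSSSCT00000000394. For AB280952 they were about 36.0-fold and about 34.6-fold lower. These folds are approximate, as hypo scar was not well above background. The normalised reference signal also differed between hyper and hypo arrays. Over all phases the hyper minus hypo difference in normalised Cy3 was -0.29 ± 0.05 for AB280952, the 6th lowest of 18765 features. For ENSSSCT00000000394 it was 0.32 ± 0.11 (SE, no test). The Cy3 spot medians before normalisation overlapped for AB280952, at 52.5 to 94 on hyper and 52 to 84 on hypo arrays. Those of ENSSSCT00000000394 were 43 to 173 and 32.5 to 63. In Cy5 alone the hyper minus hypo difference was 1.73 for AB280952 and 1.99 for ENSSSCT00000000394. The ratio therefore holds a larger difference than the biopsy channel for AB280952 and a smaller one for ENSSSCT00000000394. For TYR the Cy5 differences from control skin were -3.81, -3.95 and -3.88 in early, mid and late scar (SE 0.23; limma adjusted p = 5.5e-10, 3.1e-10 and 4.0e-10).

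**Figure D3:**
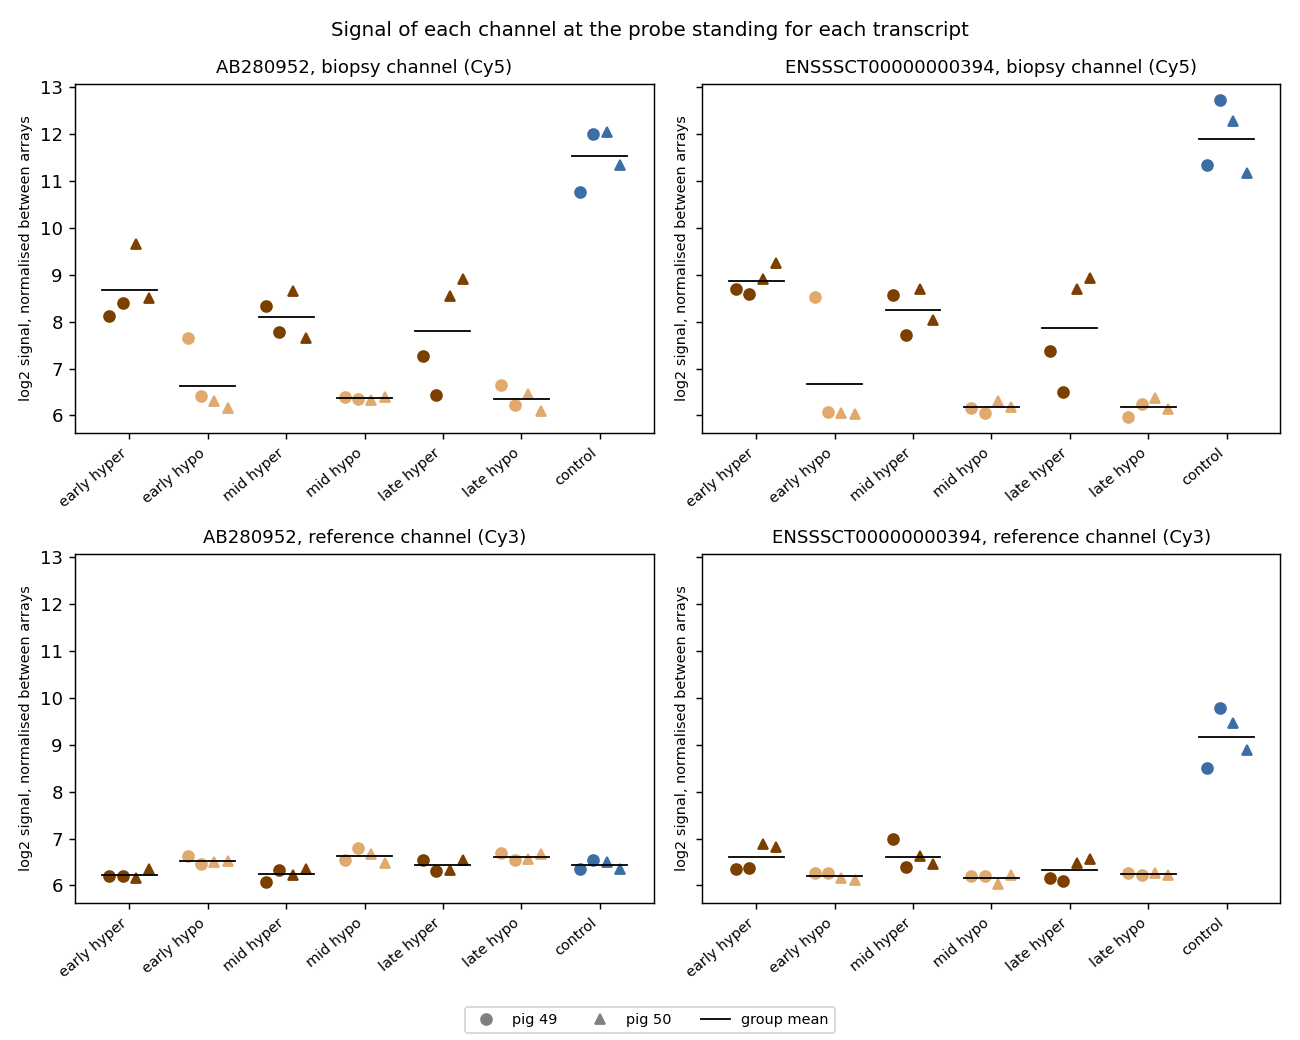
Normalised log2 signal (y axis) of the biopsy channel (Cy5, upper panels) and the reference channel (Cy3, lower panels) for AB280952 and ENSSSCT00000000394, by phase and pigmentation (x axis). Circles are pig 49, triangles pig 50 and bars group means. For AB280952 Cy3 averages 6.44 on scar arrays and 6.43 on control arrays, and for ENSSSCT00000000394 it averages 6.36 on scar arrays and 9.16 on control arrays.

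Neither transcript passed the test of time or of pressure. Late sham scar differed from early sham scar by -0.57 ± 0.36 for AB280952 (limma adjusted p = 0.259) and by -0.56 ± 0.37 for ENSSSCT00000000394 (adjusted p = 0.294), in a comparison where 19.9% of features passed in either direction. Pressure differed from sham scar by -0.40 ± 0.29 for AB280952 (adjusted p = 0.905) and by -0.21 ± 0.31 for ENSSSCT00000000394 (adjusted p = 0.967). In limma 0% of features passed that comparison, and 959 of 18765 had an unadjusted p under 0.05. In mid hyper scar the 2 pressure biopsies had lower AB280952 ratios than the 2 sham biopsies, while in late hyper scar the values under pressure and sham overlapped.

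The hyper minus hypo difference was also compared between late and early sham scar. It changed by -0.77 ± 0.71 for AB280952 (limma adjusted p = 0.778) and by 0.03 ± 0.75 for ENSSSCT00000000394 (adjusted p = 0.995). In limma 0% of features passed, and 1806 had an unadjusted p under 0.05. With SEs of this size, a change of the difference by 1 log2 unit was not detectable here.

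Over the 28 arrays the 3 probes of AB280952 correlated with each other at r = 0.984 to 0.992. Early, mid and late scar differed from control skin at the other 2 probes by -3.95, -4.39 and -4.81 and by -3.83, -4.28 and -4.47, and both were higher in hyper than in hypo scar by 1.84. They differed more over time: late minus early sham scar was -0.96 ± 0.32 and -0.57 ± 0.31 at these probes (SE, no test), and -0.70 for the mean of the 3 probes (limma adjusted p = 0.118). At 1 of these probes Cy5 was well above background in the late right hyper biopsy of pig 49, where the other 2 probes were not.

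TYR had log2 ratios of 0.23 to 1.20 in early, 0.11 to 0.79 in mid and -0.02 to 0.98 in late hyper scar. In hypo scar it lay between -0.91 and 0.06, and in control skin between 2.55 and 3.65. Its Cy5 signal was well above background on 8 of 12 hyper arrays, on 0 of 12 hypo arrays and on 4 of 4 control arrays. The left early hypo biopsy of pig 49, which carried both transcripts, had a TYR ratio of -0.07 that was not well above background.

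Within the 12 hyper biopsies AB280952 rose with TYR, with Pearson's r = 0.777 and Spearman's rho = 0.804 (two-sided permutation tests, adjusted p = 0.00948 for each, unadjusted p = 0.00237 and 0.00223). TYR was well above background in 2 of 6 hyper biopsies of pig 49 and in 6 of 6 of pig 50. The hyper biopsies with TYR near background were thus all of pig 49, and part of each correlation here orders such signals. Without the 2 biopsies farthest from the median of TYR, r was 0.643 and rho 0.685 (permutation, adjusted p = 0.0999 for each, unadjusted p = 0.0442 and 0.0347). The call after adjustment was therefore lost without those 2 biopsies, the left early and right late ones of pig 50. With animal means removed, an alternative added after the data were seen, r was 0.673 (permutation adjusted p = 0.0965). The call was kept in 5 of 7 alternatives, with r between 0.773 and 0.874 (permutation adjusted p between 0.00312 and 0.0207). For ENSSSCT00000000394 r was 0.589 and rho 0.601 (permutation p = 0.0411 and 0.0438), which did not pass after adjustment (adjusted p = 0.0877 for each). Its r ranged from 0.308 in the deposited table (permutation adjusted p = 0.534) to 0.79 with uncapped backgrounds (permutation adjusted p = 0.00806). It was 0.376 with animal means removed (permutation adjusted p = 0.289) and 0.629 in Cy5 alone (permutation adjusted p = 0.0365). The 8 tests, of 2 transcripts, 2 groups and 2 measures, were adjusted together, and no slide held more than 3 hyper arrays, too few for a value within slides.

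Within the 12 hypo biopsies the correlations with TYR were weaker and did not pass. AB280952 had r = 0.244 and rho = 0.112 (permutation adjusted p = 0.472 and 0.733), and ENSSSCT00000000394 had r = 0.427 and rho = 0.573 (permutation adjusted p = 0.208 and 0.0884). As TYR was not well above background on any hypo array, these values order signals near background. No correlation is given over the 3 kinds of tissue together as a test, because control skin, hyper scar and hypo scar form separate clusters.

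**Figure D4:**
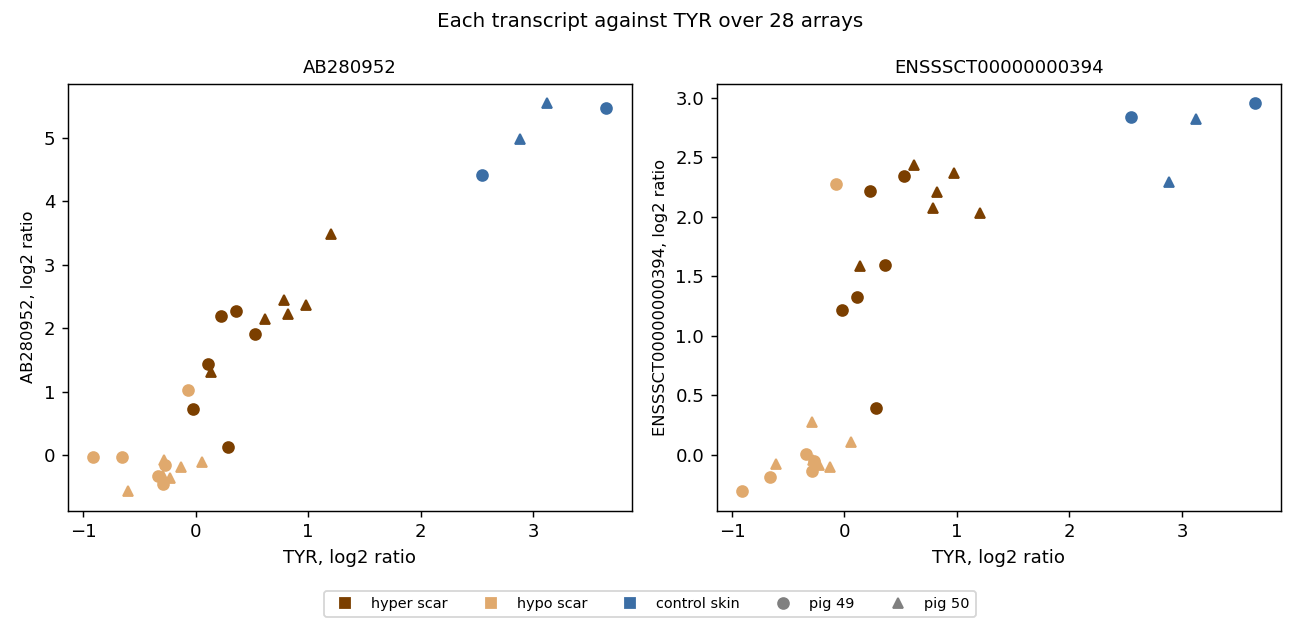
Log2 ratio of AB280952 (left) and ENSSSCT00000000394 (right) on the y axis against TYR on the x axis, in 28 biopsies. Colours mark hyper scar, hypo scar and control skin; circles are pig 49 and triangles pig 50. Control skin, with TYR between 2.55 and 3.65, lies apart from all scar biopsies.

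As a description, the features whose log2 ratios were most like AB280952 over the 28 arrays, among 16404 without missing values, were TYRP1 (r = 0.953), TYR (r = 0.945), PLET1 (r = 0.933) and ENSSSCT00000000394 (r = 0.887). TC585522, TC580886, HAS3, a hyaluronan synthase, and TC548268 followed at 0.856 to 0.880. ENSSSCT00000000394 was most like AB280952 (r = 0.887), TYRP1 (r = 0.838), PLET1 (r = 0.778) and TYR (r = 0.773), followed by TC570911, XM_001927650, MLPH and TC585522 at 0.71 to 0.756. The points share their arrays and the contrast between control skin and scar, which carries much of each r. PLET1 differed from control skin by -4.07, -4.30 and -4.31 in early, mid and late scar, close to the AB280952 values.

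After the group means and the animal were removed, the order changed. AB280952 was then most like TYRP1 (r = 0.845) and MLPH (r = 0.811), the melanophilin that links melanosomes to the motor that carries them. TC533097, AJ955167, ENSSSCT00000007391, TC580310, TC566110 and TC532461 followed at 0.726 to 0.778, ENSSSCT00000000394 ranked 28th (r = 0.676) and TYR 43rd (r = 0.658). ENSSSCT00000000394 was then most like AK347641 (r = 0.853), with AK234596, ENSSSCT00000010984, TC540268, TC541596, TC542460, ENSSSCT00000015662 and RGL2 at 0.775 to 0.789. AB280952 ranked 95th for it, and TYR 1725th (r = 0.462). None of its 8 most alike features was higher in hyper than in hypo scar in these values, where they differed by -0.32 to -0.01. ENSSSCT00000000394 stood at 2.27 in the left early hypo biopsy of pig 49, against -0.18 to -0.09 in the other early hypo biopsies. How far that 1 biopsy sets these r values and ranks was not tested. In mid and late scar each group held 2 arrays, 1 per pig, so the values left after removal mirror each other within a group. How far single groups set the r values of AB280952 was not tested either.

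Of 35 pigment genes on a list, 20 were measured, meaning here matched by symbol to a tested feature. The same holds for the marker lists below. Symbols were found for 2646 of the 18765 tested features. The unmatched genes may be absent, too dim or among the 16119 features without a symbol. In early scar 7 of the 20 fell and 1 rose, in mid scar 8 fell, and in late scar 7 fell, with median log2 differences of -0.23, -0.29 and -0.28, against 0.11, 0.10 and 0.10 over all features. Among all features 14.7%, 11.6% and 13.4% fell and 24.1%, 22.1% and 26.3% rose in early, mid and late scar, so 7 or 8 of 20 was above and 1 of 20 below these shares. TYR fell in early, mid and late scar, with log2 differences of -2.86, -3.02 and -3.02 (limma adjusted p = 5.1e-09, 2.4e-09 and 2.6e-09), and so did TYRP1, with -1.59, -1.81 and -1.97 (adjusted p = 0.000148, 9.4e-05 and 2.2e-05). EDNRB, the endothelin receptor of melanocyte precursors, OCA2, a melanosome membrane protein, RAB27A and MLPH, which tether melanosomes for transport, and LEF1, a WNT pathway transcription factor, also fell in all 3 phases. EDN1, an endothelin ligand, fell in mid scar alone of the 3 tests, and RAB32, a small GTPase of melanosome biogenesis, rose in early scar. The other genes of the 20, with DCT, MITF, SOX10, KIT and MC1R among them, passed in none of the 3 tests. DCT differed from control skin by -0.21, 0.30 and 0.30 in early, mid and late scar (limma adjusted p = 0.460, 0.295 and 0.284). Between hyper and hypo scar 1 of the 20 passed, TYR. TYRP1 differed by 0.96 there, with an adjusted p of 0.18, and MLPH by 0.28, with an adjusted p of 0.999. DCT differed by 0.17, also with an adjusted p of 0.999.

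Markers of other cell types moved with some of these values. Against the same shares of all features, the 5 measured of 8 hair follicle and gland genes all fell in early, mid and late scar, with list means of -0.90 to 1.54 in scar and 3.63 to 4.16 in control skin. Of the scar biopsies, 2 left hyper ones of pig 49 had the highest means, 1.35 in early and 1.54 in mid scar, against at most -0.31 in hypo scar. Fibroblast genes, 4 of 8 measured, rose in 4, 2 and 1 of 4 in early, mid and late scar, and endothelial genes, 4 of 5 measured, in 4 of 4 in each phase. The part of these lists in the fall of the 2 transcripts was not tested. Between hyper and hypo scar 0 of the 5 hair follicle and gland genes passed in limma. The 8 measured of 13 melanocyte genes had list means of -0.11 to 0.54 in hyper scar, -0.21 to 0.14 in hypo scar and 0.72 to 1.17 in control skin, with 4 of 8 lower in each phase of scar than in control skin.

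Skeletal muscle genes, 13 of 14 measured, marked 3 biopsies. Their list mean was 2.92 in the late pressure hyper biopsy of pig 49, 2.47 in the mid pressure hyper biopsy of pig 49 and 0.81 in the left early hypo biopsy of pig 50, against -3.40 to -0.31 in the other 25. The late biopsy was the hyper biopsy with the lowest levels of both transcripts. The mid pressure hyper biopsy of pig 49 had AB280952 at 1.44, above the 1.31 in that of pig 50, whose muscle mean was -3.40. ENSSSCT00000000394 went the other way in these biopsies, at 1.33 in pig 49 and 1.59 in pig 50. A link of the levels to muscle content was not tested. Without these 3 arrays, an alternative added after the data were seen, hyper minus hypo over all phases was 2.11 for AB280952 and 1.80 for ENSSSCT00000000394, and all 6 calls against control skin were kept.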

How the data were processed

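Gene expression was measured on 28 two-colour Agilent pig arrays, on 7 slides of 4. The scans were read with version 10.7.1.1 of Agilent Feature Extraction, per the file headers, which gave spot and local background medians as intensity on a linear scale. The deposited scanner files also hold a Cy5 over Cy3 ratio on a log10 scale, not used here. The authors deposited a value table in log2 units. For probes with 1 spot it matched log2 of processed Cy5 over processed Cy3 signal to within 0.001 for 100% of values on every array. Further steps are not given in the sources used here.

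Local backgrounds were capped at the 99th percentile of each array and channel, since single backgrounds reached 649958. They were then corrected by normexp (offset 50) and normalised by loess within arrays in limma 3.58.1 (R 4.3.3). Outlier spots were left out. A probe was kept if Cy5 was well above background, by the scanner's flag, on at least 4 arrays (24510 of 43603 probes). That flag was set on 31.4 to 55.7% of probes per array. The number of arrays limits the precision. The brightest probe stood for a gene or accession, and symbols came from RefSeq accessions. For single-channel values Aquantile followed loess.

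One limma model had a mean for each of 11 groups plus a block for the animal, as the labels tie each biopsy to a pig. Benjamini-Hochberg adjustment ran over 18765 features, and adjusted p-values under 0.05 passed. The fit was tested on simulated data. Correlations used 100000 permutations. The named features are the 2 transcripts, TYR, the pigment list and the 8 features most like each transcript. The members and lists were chosen with earlier results of these data known. No numbers are adjusted over the members alone. Alternatives covered the background cap, the deposited table, scaling, channel, filters, probe choice, blocks and each array left out.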

Additional observations from a re-analysis of the deposited data

Results flagged for a closer look

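ENSSSCT00000000394 had a log2 ratio of 2.27 in the left early hypo biopsy of pig 49, far from the other 3 early hypo biopsies. The gap to the nearest of them was 0.961 of the range of the group, above Dixon's 95% critical value for 4 samples. In all, 14 groups were examined, and chance alone marks about 1 in 20. AB280952 had 1.03 in the same biopsy, its highest hypo value, while TYR was not well above background there.

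The Cy3 signal of the ENSSSCT00000000394 probe, which carries reference RNA and is not part of the comparisons of biopsies, differed from control arrays by -2.75 in early, -2.77 in mid and -2.87 in late scar on the log2 scale. A signal of this kind was found at the control arrays of both pigs. The cause was not tested.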

How the results depend on the processing

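Over 20 differences, 432 alternative values were computed, and 419 kept their side of the threshold or moved by less than the spread of the pairs. In the deposited value table ENSSSCT00000000394 no longer passed against control skin, at -0.87 in early, -1.39 in mid and -1.47 in late scar. Hyper minus hypo in that table was 4.13 over all phases, 3.86 in early, 4.87 in mid and 3.66 in late scar for AB280952, and 2.999 over all phases, 2.88 in mid and 3.40 in late scar for ENSSSCT00000000394. With uncapped backgrounds the mid difference was 0.76 for AB280952 and 0.61 for ENSSSCT00000000394, which in Cy5 alone was 2.08. The causes were not tested. The other differences from control skin passed under every alternative run.

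With no replicate block, the paired structure by animal left out, AB280952 differed from control skin by -3.83, -4.30 and -4.55 and ENSSSCT00000000394 by -1.36, -1.90 and -1.99, with no call changed. With the replicate block of animal and side no call changed either.

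The correlation of AB280952 with TYR in hyper scar was 0.643 without the 2 farthest biopsies and 0.673 with animal means removed, and no longer passed. With uncapped backgrounds AB280952 in hypo scar passed at 0.722 and ENSSSCT00000000394 in hyper scar at 0.79. In Cy5 alone ENSSSCT00000000394 passed at 0.629 in hyper and 0.605 in hypo scar. The number of features called late against early sham scar was 3741, against 11 with uncapped backgrounds and 1079 with slide as a block. That for mid scar against control skin was 6339, against 4146 with slide as a block and 3896 without control replicate 50L. Pressure against sham scar gave 0 calls, and 40 without the late pressure hyper biopsy of pig 50. The change of the hyper minus hypo difference gave 0, against 141 with slide as a block and 120 without the late sham hyper biopsy of pig 50. Neither transcript was among the calls gained. Levels near background limit all hypo values.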
